A study of Mus musculus with 36 samples.

Results

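The 34 genes described here are targets of the nuclear receptor PPAR-alpha and enzymes of fatty acid oxidation, followed in mouse liver RNA across 9 groups of mice. They were taken by symbol from the 49315 genes of the expression table, and all 34 were found. By role they comprise 5 genes of the carnitine shuttle, 11 of mitochondrial beta-oxidation, 7 of peroxisomal beta-oxidation and the peroxisome, 1 of ketone body metabolism, 3 of omega-oxidation, 4 acyl-CoA thioesterases, and 3 other targets and partners of PPAR-alpha.

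The mice carried a CRISPR substitution in LXRalpha, the liver X receptor alpha, a nuclear receptor for oxidised cholesterol, in which tryptophan 441 was replaced by phenylalanine. W/W mice were homozygous controls, W/F mice heterozygous and F/F mice homozygous for the substitution, and the labels name no cell type to which it was restricted. All 36 mice were males aged 11 to 12 weeks, with 4 mice in each group. The chow groups (W/W, W/F and F/F) formed an independent cohort on a normal diet, and the other 6 groups were fed a high fat, high cholesterol diet that promotes metabolic dysfunction-associated steatohepatitis (MASH) for 4 weeks. During the last 2 weeks the mice on the MASH diet received either vehicle or T0901317, a synthetic LXR agonist, at 10 mg/kg by daily oral gavage. The diet and the cohort cannot be told apart in any comparison with chow, and the labels describe gavage only for the mice on the MASH diet. The labels give no sequencing batch, and they name the receptor's gene by a symbol, Nr1h2, that usually stands for LXRbeta. Gene-level values cannot show the substitution.

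PPAR-alpha is activated by fatty acids and, as a dimer with the retinoid X receptor, switches on genes that carry fatty acids into mitochondria and peroxisomes and degrade them there. In liver it is best known for the response to fasting and to fibrate drugs, when beta-oxidation, omega-hydroxylation by Cyp4a enzymes and ketone body production rise together. LXR also dimerises with the retinoid X receptor, and it activates genes of sterol efflux and of fatty acid synthesis.

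The deposited unit was TPM (transcripts per 1000000), which is a per-length scale on which levels of different genes can be compared. The recovered depth was 18.1 to 35.8 per library, in units of 1000000 reads. A gene was tested if 4 or more samples reached 1 TPM. All 34 members met this, and 33 of them reached 1 TPM in every sample, the exception being Acot3. Below, levels are in TPM and the 4 mice of a group are listed in order of replicate number, means carry the SD over 4 mice, and fold changes are limma estimates on the log2(TPM + 1) scale with their SE. A gene is said to be called when its Benjamini-Hochberg adjusted p over the 16638 genes tested was under 0.05. In some comparisons the median gene of the table did not lie at 0 (log2 fold change). Relative to W/W vehicle mice it was 0.70 in F/F and 0.52 in W/F vehicle mice. It was -0.49 for the agonist in W/F mice, and 0.43 in F/F relative to W/W mice under the agonist. Most counts of members are therefore given as deposited and after rescaling every library by median-of-ratios factors. Marker counts are as deposited unless stated.

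Markers of other liver cells differed between the same groups. All 12 hepatocyte markers examined were above 0 in every library, and their summed level was 70338 to 93015 TPM for W/W, 75146 to 84305 TPM for W/F and 50251 to 53050 TPM for F/F vehicle mice. The 10 macrophage markers summed to 267 to 456 TPM for W/W, 3589 to 5048 TPM for W/F and 4193 to 5378 TPM for F/F vehicle mice, and none of them was at 0 in any library. The 10 stellate cell and fibroblast markers and the 7 bile duct markers were also higher in those mutant mice, and were at 1315 to 1667 TPM and 2942 to 3588 TPM in F/F vehicle mice against 100.5 to 165 TPM and 54.7 to 62.2 TPM in W/W vehicle mice. In whole liver, fewer hepatocytes and less RNA of a gene per hepatocyte cannot be told apart, and the part of these cells in the results was not tested.

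In W/W mice the 34 transcripts together took 0.689% ± 0.135 of the library on chow, 1.11% ± 0.156 on the MASH diet with vehicle and 1.97% ± 0.214 with T0901317 (SD, n = 4 each). This sum weighs the abundant genes most. In W/W mice with T0901317 its mean was 19664 TPM, with 5447 TPM from Acaa1b, 2636 from Ehhadh, 1760 from Cyp4a10 and 1617 from Cyp4a14. The mutant genotypes stayed lower in this sum on the diet. W/F mice had 0.597% ± 0.0855, 0.550% ± 0.0424 and 0.925% ± 0.0871 in the same order, and F/F mice had 0.529% ± 0.0564, 0.523% ± 0.0179 and 0.673% ± 0.0715. No F/F mouse on the diet reached the lowest W/W mouse of the same treatment, 9222 TPM on vehicle and 17706 TPM with T0901317 against at most 5404 and 7772 TPM in F/F.

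The spread over the 9 group means ranged from orders of magnitude for some members to little change for others. Cyp4a14 had the widest ratio between its highest and lowest group mean, 612-fold, followed by Cyp4a12a at 194-fold, Cyp4a10 at 182-fold and Acot1 at 93.8-fold. Acot3 spanned 39.5-fold, Acaa1b 39.2-fold, Ehhadh 36.7-fold and Acot2 25.1-fold. Pdk4 at 8.78-fold, Vnn1 at 6.05-fold and Crat at 5.93-fold came next, and Cpt2, at rank 19 of the 34, spanned 2.06-fold. At the other end stood Creb3l3 at 1.35-fold and Acadvl at 1.32-fold. As deposited, W/W mice with T0901317 had the highest mean for 31 of the 34 genes. The exceptions were Cpt1a and Bdh1, highest in F/F chow mice, and Acaa2, highest in W/W vehicle mice.

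**Figure D1:**
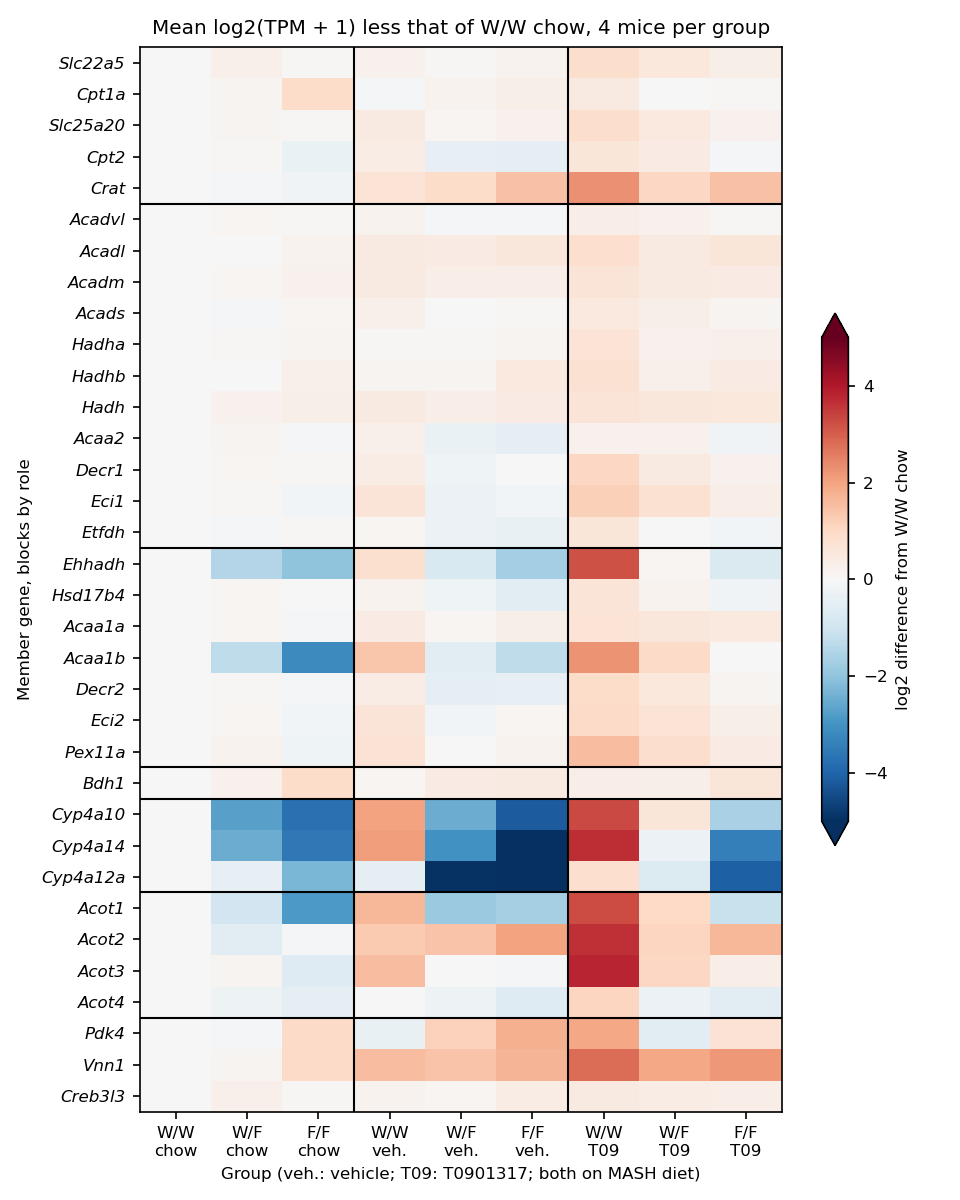
Mean log2(TPM + 1) of each of the 34 genes in each of the 9 groups, less the mean of the same gene in W/W chow mice (4 mice per group; rows are genes in blocks by role, columns are groups, the colour scale saturates beyond ±5). The deep blue cells of the mutant groups lie in the rows of Ehhadh, Acaa1b, the Cyp4a genes and Acot1, and the deepest red cells are in the column of W/W mice with T0901317.

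T0901317 raised most of these genes in W/W mice. Compared with vehicle, 22 of the 34 were called higher and 0 lower, against 10.8% of all genes called, 7.87% higher and 2.91% lower. The median log2 fold change was 0.60 over the members and 0.06 over all genes. All 4 thioesterases, 5 of 7 peroxisomal genes, 6 of 11 mitochondrial genes and 4 of 5 carnitine shuttle genes were among those called. After rescaling 17 were higher and 0 lower, with 13.6% of all genes called, 8.05% higher and 5.52% lower. Leaving out the fourth W/W vehicle mouse, which had the lowest level of Crat, Acot2, Acot3 and Pdk4 in its group, reduced the count to 13, and 13 of the 22 kept their call with each of the 8 mice left out in turn. In W/F mice 22 were called higher and 1, Pdk4, lower, where 65.9% of all genes were called, 6.59% higher and 59.3% lower. After rescaling the W/F count was 30 higher and 1 lower, with 50.8% of all genes called. In F/F mice 9 were called higher and 0 lower as deposited, where 35.1% of all genes were called and 3.95% were higher, and 20 higher and 0 lower after rescaling, where 16.4% of all genes were called, 8.28% higher and 8.12% lower. The hepatocyte markers had a median log2 fold change of -0.23 for W/W, 0.08 for W/F and 0.20 for F/F mice. Markers of other cells moved with the agonist in the mutants. In W/F mice 9 of 10 macrophage markers were lower and 1 higher (median -3.20), and 10 of 10 stellate cell and fibroblast markers (median -2.25), 7 of 7 bile duct markers (median -1.76) and 6 of 6 neutrophil markers (median -2.25) were lower. F/F mice had 7 of 10 macrophage markers lower and 2 higher, and 5 of 10 stellate cell and fibroblast, 7 of 7 bile duct and 5 of 6 neutrophil markers lower. W/W mice had 1 macrophage, 3 stellate cell and fibroblast and 1 bile duct marker higher and none of these lower. After rescaling, 1 of 10 macrophage markers was lower and 2 higher in F/F mice. Of their stellate cell and fibroblast markers 5 were lower and 1 higher, with 5 of 7 bile duct and 5 of 6 neutrophil markers lower. Rescaled, W/F mice had 8 macrophage, 9 stellate cell and fibroblast, 7 bile duct and 6 neutrophil markers lower, and 1 macrophage marker higher. In W/W mice the rescaled counts were 1, 4 and 1 higher. The part of these markers in the result was not tested. Relative to the hepatocyte markers, the T0901317 counts were 31 higher and 0 lower in W/W and 4 higher and 4 lower in F/F. The share of all genes called on that scale is not given here, so these counts cannot be set against it.

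**Figure D2:**
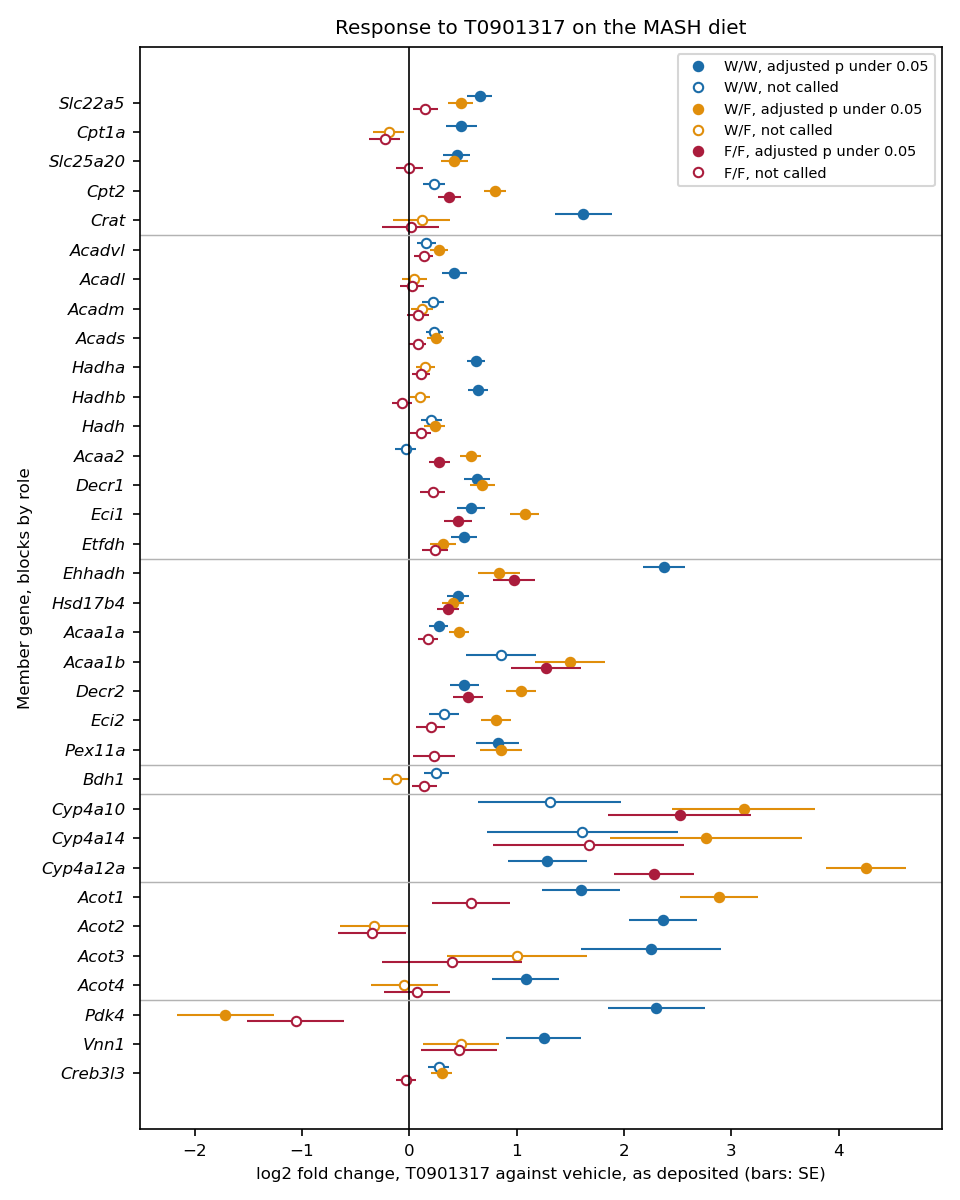
Log2 fold change of each gene for T0901317 against vehicle on the MASH diet in W/W (blue), W/F (orange) and F/F (red) mice, as deposited, with SE bars (4 against 4 mice; filled points had an adjusted p under 0.05). Ehhadh, Crat, Acot2 and Pdk4 show blue points far to the right of the orange and red ones, whereas for Cyp4a12a the orange point lies farthest right.

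On the MASH diet the mutant genotypes had lower levels of many members. With vehicle, 2 members were called higher and 20 lower in W/F than in W/W mice, where 68.5% of all genes were called, 61.6% higher and 6.83% lower. In F/F against W/W mice 7 were higher and 18 lower, where 76.5% of all genes were called, 69.3% higher and 7.13% lower. The members' median was -0.34 in W/F and -0.31 in F/F, while the hepatocyte markers had medians of -0.32 and -0.42. After rescaling, W/F mice had 0 higher and 30 lower and F/F mice 1 higher and 30 lower, with 53.1% and 59.0% of all genes called. Relative to the hepatocyte markers the F/F split was 13 higher and 10 lower, given without the share of all genes called on that scale. Of the members called higher in F/F vehicle mice as deposited, 4 were called lower after rescaling. They were Bdh1, Cpt1a, Hadhb and Creb3l3. Cpt1a in F/F mice was 0.33 (adjusted p = 0.0407) as deposited and -0.53 rescaled, and the first was lost at an adjusted p of 0.151 without W/W vehicle replicate 1. Hadhb was 0.36 (adjusted p = 9.38e-04) and -0.48. Creb3l3 was 0.22 (adjusted p = 0.0407), lost at an adjusted p of 0.253 without W/W vehicle replicate 1, and -0.64 rescaled. With T0901317, 0 members were higher and 21 lower in W/F than in W/W mice (9.88% of all genes called), and 0 higher and 28 lower in F/F (63.2% of all genes called, 6.96% lower). With the agonist, 8 of 10 macrophage, 9 of 10 stellate cell and fibroblast and 7 of 7 bile duct markers were called higher in F/F than in W/W mice, and 0 in W/F. The hepatocyte markers had medians of 0.19 and 0.09 there, and relative to them 0 members were higher and 27 lower in F/F, again without that share. After rescaling the counts with T0901317 were 19 lower in W/F and 33 lower in F/F, and 0 higher in both, with 13.5% and 46.8% of all genes called. With each of the 8 mice left out in turn, 25 of the 28 calls in F/F mice with T0901317 and 18 of the 25 on vehicle were kept.

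**Figure D3:**
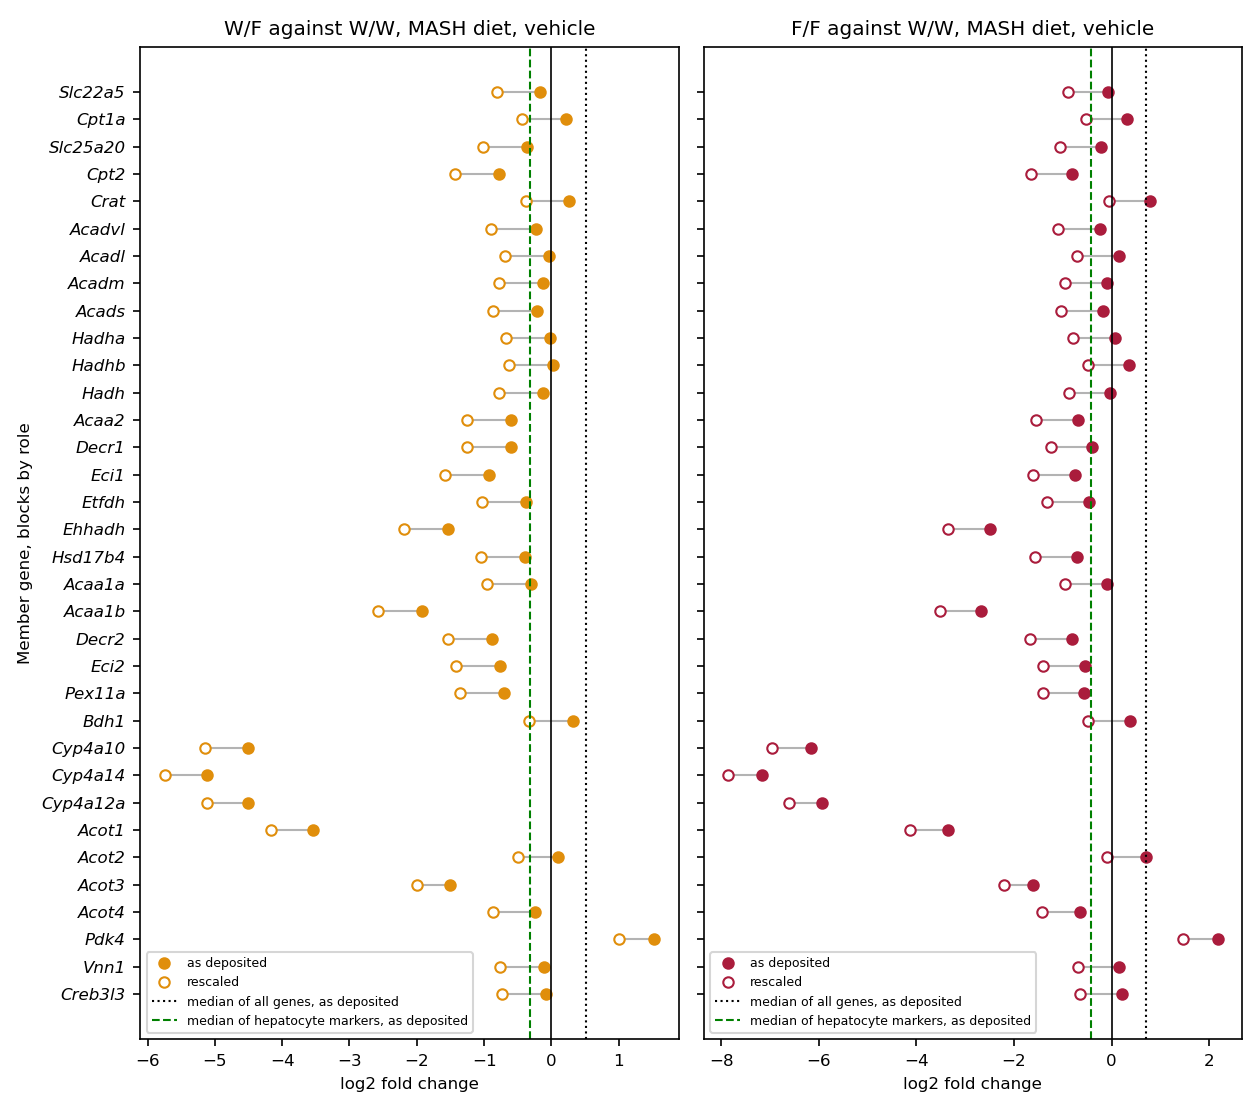
Log2 fold change of each gene in W/F (left) and F/F (right) against W/W mice on the MASH diet with vehicle, as deposited (filled points) and rescaled by median-of-ratios factors (open points), 4 against 4 mice. The Cyp4a genes, Acot1, Acaa1b and Ehhadh lie far to the left on both scales, Pdk4 lies to the right on both, and as deposited most mitochondrial genes lie between the median of hepatocyte markers (dashed) and that of all genes (dotted).

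On chow fewer members were called. In W/F mice only Ehhadh was called, lower than in W/W mice, where 0.487% of all genes were called and 0.288% were lower. A fit of these 8 mice alone called 0 members, with 4 at an unadjusted p under 0.05 and 3 of all genes called. In F/F chow mice 5 members were higher and 7 lower, where 46.7% of all genes were called, 43.0% higher and 3.65% lower. The 7 lower ones were Cpt2, Ehhadh, Acaa1b, Cyp4a10, Cyp4a14, Cyp4a12a and Acot1, and the 5 higher ones Cpt1a, Hadhb, Hadh, Bdh1 and Vnn1. Of the higher ones, 3 lost their call with 1 mouse left out, at an adjusted p of 0.132 without F/F chow replicate 3 for Hadhb, 0.128 without W/W chow replicate 2 for Hadh and 0.231 without W/W chow replicate 2 for Vnn1. In the same comparison 9 of 10 stellate cell and fibroblast markers were higher (median 2.43), 7 of 10 macrophage markers were higher and 2 lower (median 1.85), and 7 of 7 bile duct markers were higher (median 1.69), and their part in the result was not tested. After rescaling the F/F split was 2 higher (Cpt1a and Bdh1) and 18 lower, with 29.8% of all genes called. Omitting 1 of 3 chow mice (the second W/F mouse, the third W/F mouse, or the second W/W mouse) raised the W/F count from 1 to 3.

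The diet went with higher levels of the members in W/W mice. Against chow, 17 were called higher and 0 lower in W/W vehicle mice, where 12.9% of all genes were called, 2.59% higher and 10.3% lower. Rescaled, 22 were higher and 0 lower, with 15.4% of all genes called and 8.42% lower. The count of 17 as deposited rested on the shared estimate of spread. A fit of the 8 W/W mice alone called 0 members, with 19 at an unadjusted p under 0.05 and 580 of all genes called. The 17 also fell to 11 without the second W/W chow mouse. The rescaled count was not refitted in these ways. In W/F mice 7 were higher and 8 lower (61.0% of all genes called, 52.4% higher and 8.53% lower), and 1 higher and 22 lower after rescaling (54.8%). In F/F mice 8 were higher and 7 lower (55.8% of all genes called, 46.5% higher and 9.27% lower), and 3 higher and 12 lower after rescaling (47.0%). In W/F mice 9 of 10 macrophage, 10 of 10 stellate cell and fibroblast and 7 of 7 bile duct markers were higher on the diet, in F/F mice 8, 8 and 7, and in W/W mice 0. Hepatocyte markers had medians of -0.14, -0.27 and -0.58 in W/W, W/F and F/F mice.

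Of the 69 other genes of PPAR-alpha action and fatty acid oxidation in the table, 63 were tested. T0901317 raised 26 and lowered 4 of them in W/W, raised 36 and lowered 13 in W/F and raised 21 and lowered 8 in F/F mice. Of all genes 10.8%, 65.9% and 35.1% were called there, 7.87%, 6.59% and 3.95% higher. In F/F against W/W mice, 17 were higher and 36 lower on vehicle, 7 higher and 41 lower with T0901317, and 15 higher and 19 lower on chow. Of all genes 76.5%, 63.2% and 46.7% were called in these, 7.13%, 6.96% and 3.65% lower. Rescaled, the F/F splits against W/W were 9 and 46, 4 and 55, and 8 and 31, with 59.0%, 46.8% and 29.8% of all genes called. The rescaled T0901317 counts were 27 and 4 in W/W, 48 and 8 in W/F and 36 and 3 in F/F, with 13.6%, 50.8% and 16.4% called. The median of the list on vehicle in F/F was -0.48, against 0.70 for all genes. Fgf21, a hormone that PPAR-alpha induces in fasting, was higher in F/F mice, with 5.64, 7.13, 6.99 and 1.45 TPM in W/W and 25.9, 25.3, 30.0 and 28.9 TPM in F/F vehicle mice (log2 fold change 2.32 ± 0.39 SE, adjusted p = 3.14e-06). As deposited, it was also called higher in F/F than W/W mice on chow and with T0901317. On the diet it was called higher than on chow in W/W, W/F and F/F mice. T0901317 went with lower Fgf21 in W/F mice, and in F/F mice, where the call was kept in 5 of 8 fits with 1 mouse left out.

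Relative to W/W mice, Ppara, the receptor, was lower in F/F mice on the diet, and in W/F mice given T0901317. Its values here are as deposited. Its level was 27.2, 61.6, 29.3 and 44.7 TPM in W/W vehicle mice and 15.9, 21.2, 21.9 and 22 TPM in F/F vehicle mice, a log2 fold change of -0.91 ± 0.30 (SE), adjusted p = 0.00685. With T0901317 it was 44.6, 32.0, 55.9 and 74.9 TPM in W/W, 20.6, 23.4, 24.9 and 25.4 TPM in W/F and 21.1, 22.2, 20.8 and 13.4 TPM in F/F mice. All W/F and F/F mice with the agonist lay below all W/W mice, with log2 fold changes of -1.04 ± 0.30 (SE), adjusted p = 0.0203, and -1.33 ± 0.30 (SE), adjusted p = 2.90e-04. The W/F call was lost without some W/W mice (adjusted p = 0.103 without W/W T0901317 replicate 4). On chow the levels overlapped, at 81.9, 91.0, 50.8 and 51.0 TPM in W/W and 72.6, 43.9, 48.5 and 47.5 TPM in F/F mice, and the log2 fold change was -0.34 ± 0.30 (SE), adjusted p = 0.353. W/F mice had 78.3, 77.5, 50.1 and 51.2 TPM on chow and 18.6, 51.5, 40.6 and 16.2 TPM on vehicle. Against chow, Ppara was called lower on vehicle in W/F and F/F mice, but not in W/W mice. With each of 8 mice left out, the largest adjusted p was 0.0143 in W/F and 0.00270 in F/F. T0901317 against vehicle did not pass the test in any genotype, with log2 fold changes of 0.35 (adjusted p = 0.545) for W/W, -0.26 (adjusted p = 0.455) for W/F and -0.07 (adjusted p = 0.865) for F/F.

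The carnitine shuttle moves long-chain acyl groups across the mitochondrial membranes. Slc22a5 takes up carnitine at the cell surface, Cpt1a and Cpt2 join and release the acyl group on either side, Slc25a20 exchanges acylcarnitine for carnitine, and Crat handles short chains. Crat had the largest response of the 5 to T0901317 in W/W mice, from 18.7, 37.3, 36.3 and 15.6 TPM on vehicle to 74.8, 104, 63.0 and 81.1 TPM, a log2 fold change of 1.62 ± 0.26 (SE), adjusted p = 6.18e-05. The W/W groups did not overlap. W/F mice had 31.1, 27.5, 28.4 and 34.6 TPM on vehicle and 31.5, 37.4, 32.8 and 30.4 TPM with T0901317 (log2 fold change 0.12, adjusted p = 0.717), and in F/F mice 44.6, 44.3, 44.6 and 42.3 and 42.3, 44.5, 49.3 and 41.6 TPM (0.01, adjusted p = 0.976). The mutant values with and without the agonist overlapped, and after rescaling the W/F value was 0.70 (adjusted p = 0.0262). F/F vehicle mice lay above all W/W vehicle mice, with a log2 fold change of 0.78 (adjusted p = 0.00889). It was -0.05 after rescaling, and the adjusted p was 0.0614 without W/W vehicle replicate 4. On chow Crat was 19.8, 8.10, 18.9 and 18.2 TPM in W/W and 12.9, 10.6, 15.5 and 15.6 TPM in F/F mice.

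Cpt1a, the rate-controlling step of mitochondrial uptake, followed another pattern. On chow it was 215, 240.2, 181 and 169 TPM in W/W, 252, 254, 184 and 196 TPM in W/F and 379, 398, 386 and 339 TPM in F/F mice, and every F/F mouse lay above every other chow mouse. The F/F difference on chow was 0.91 ± 0.14 (SE), adjusted p = 1.12e-05, and 0.53 after rescaling (adjusted p = 0.00549). In F/F vehicle mice it was lower than on chow, at 235, 276, 218 and 244 TPM (log2 fold change -0.63 ± 0.14 SE, adjusted p = 4.88e-04), a range that overlapped the 163, 269.7, 188 and 168 TPM of W/W vehicle mice. Relative to the mean log2 level of the hepatocyte markers, the change of Cpt1a had the opposite sign, at 0.02. The median fold change of those markers was -0.58 (log2) in the same comparison. With T0901317 it was 255, 237, 296 and 298 TPM in W/W, 172, 214, 198 and 206 TPM in W/F and 202, 222, 233 and 174 TPM in F/F mice, with every mutant mouse below every W/W mouse. The T0901317 response was 0.48 (adjusted p = 0.0261) in W/W mice, where the adjusted p was 0.110 without W/W vehicle replicate 1. It was -0.19 (adjusted p = 0.243) in W/F mice, with 0.41 (adjusted p = 0.0192) after rescaling, and -0.23 (adjusted p = 0.213) in F/F mice. That of W/W was no longer called after rescaling, at 0.42 (adjusted p = 0.0516).

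Cpt2, the inner-membrane transferase, separated the genotypes on vehicle. It was 139, 161, 177 and 157 TPM in W/W, 95.9, 89.4, 81.3 and 103 TPM in W/F and 83.0, 93.5, 92.9 and 90.3 TPM in F/F vehicle mice, with no overlap between W/W and either mutant group. The log2 fold changes were -0.77 ± 0.10 (SE), adjusted p = 1.58e-07, and -0.81 ± 0.10 (SE), adjusted p = 3.70e-08. T0901317 raised it in W/F mice to 156, 152, 173 and 164 TPM, a log2 fold change of 0.80 ± 0.10 (SE), adjusted p = 1.24e-07, and in F/F mice to 109, 110.1, 132 and 117 TPM, a log2 fold change of 0.37 ± 0.10 (SE), adjusted p = 0.00702. The F/F call was lost relative to the hepatocyte markers, at 0.18. In W/W mice it was 185, 185, 191 and 181 TPM, which lay above all W/W vehicle mice but did not pass the test (log2 fold change 0.23, adjusted p = 0.179). Slc25a20 had 82.1, 89.1, 90.8 and 72.6 TPM in W/W vehicle mice and 124, 118, 112 and 102 TPM with T0901317, against 79.4, 71.0, 65.6 and 70.8 and 58.3, 76.2, 83.8 and 70.7 TPM in F/F mice. Its F/F groups overlapped, and with T0901317 all F/F mice lay below all W/W mice (log2 fold change -0.66 ± 0.13 SE, adjusted p = 5.26e-05). Slc22a5 was the lowest of the 5 in W/W chow mice after Crat and rose with T0901317 in W/W mice from 22.8 ± 4.08 to 36.1 ± 1.12 TPM (log2 fold change 0.66 ± 0.12 SE, adjusted p = 1.90e-04).

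Mitochondrial beta-oxidation removes acetyl-CoA units in 4 steps, started by the acyl-CoA dehydrogenases Acadvl, Acadl, Acadm and Acads for decreasing chain lengths. The trifunctional protein subunits Hadha and Hadhb, Hadh and the thiolase Acaa2 carry out the following steps, Decr1 and Eci1 handle unsaturated chains, and Etfdh passes the electrons to the respiratory chain. As deposited, all 11 apart from Eci1 differed by less than 2-fold in each of the 16 comparisons. After rescaling the median of the 11 was -1.03 in F/F against W/W vehicle mice. Acadm, the medium-chain dehydrogenase, was 242, 299.6, 316 and 245 TPM in W/W, 228, 262, 248 and 269 TPM in W/F and 263, 248, 243 and 268 TPM in F/F vehicle mice, and the 3 groups overlapped. Acadl, the long-chain dehydrogenase, was 276, 340.5, 341 and 264 TPM in W/W and 352, 326, 331 and 339 TPM in F/F vehicle mice, again with overlap. Hadh was 176, 198, 182 and 162 TPM in W/W and 189.9, 171, 169 and 177 TPM in F/F vehicle mice, with a log2 fold change of -0.02 (adjusted p = 0.849) as deposited and -0.87 after rescaling. The corresponding values of Acadm were -0.10 (adjusted p = 0.387) and -0.95. Relative to the hepatocyte markers the values were 0.31 for Acadm and 0.38 for Hadh, so the direction in F/F vehicle mice rested on the scaling. Acadvl and Acads, the dehydrogenases for the longest and the shortest chains, had group means of 278 to 366 and 132 to 191 TPM, and Etfdh had means of 64.1 to 127 TPM.

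Hadha and Hadhb encode the 2 subunits of 1 complex and start back to back on chromosome 5, their 300-base promoter windows overlapping by 228 bases. The window of Hadhb is shown because both genes were called higher with T0901317 in W/W mice. The Hadhb promoter, chr5:30155003-30155302 on the plus strand of GRCm38.p6 (RefSeq), holds 250 bases before the start and 50 after it, and has no AGGTCA half-site, the hexamer to which PPAR-alpha, LXR and the retinoid X receptor each bind.
Hadhb: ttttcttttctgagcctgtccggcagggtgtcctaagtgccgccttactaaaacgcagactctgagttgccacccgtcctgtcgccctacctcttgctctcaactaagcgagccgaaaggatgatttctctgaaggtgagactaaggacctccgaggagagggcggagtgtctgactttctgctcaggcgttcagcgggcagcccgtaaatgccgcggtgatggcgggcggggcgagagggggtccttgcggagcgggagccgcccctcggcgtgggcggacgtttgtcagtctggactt
Hadha was 96.6, 135, 119.7 and 104 TPM in W/W vehicle mice and 163, 190.3, 169 and 177 TPM with T0901317, and Hadhb was 64.7 ± 10.2 and 101 ± 2.99 TPM. The groups of both genes did not overlap, with log2 fold changes of 0.62 ± 0.09 (SE), adjusted p = 6.41e-06, and 0.64 ± 0.09 (SE), adjusted p = 1.25e-05. In F/F mice Hadha was 114, 122, 118 and 119 TPM on vehicle and 122, 123, 136 and 129 TPM with T0901317, which did not overlap. The change of 0.11 did not pass the test as deposited (adjusted p = 0.337) and did so after rescaling, at 0.37 (adjusted p = 0.00869). Acaa2, the mitochondrial thiolase, was nearly level, with 1396, 1608, 1412 and 1446 TPM in W/W vehicle mice and 1520.0, 1347, 1438 and 1420.3 TPM with T0901317 (log2 fold change -0.03, adjusted p = 0.905), the smallest response of any member in W/W.

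Of the mitochondrial enzymes, Eci1, Decr1 and Acaa2 had the lowest values in W/F vehicle mice relative to W/W, and Eci1 and Acaa2 in F/F. Eci1, the enoyl-CoA isomerase, was 436, 449.7, 456 and 367 TPM in W/W, 246, 221, 192 and 242 TPM in W/F and 266, 269.8, 222 and 255 TPM in F/F mice, with log2 fold changes of -0.92 ± 0.13 (SE), adjusted p = 4.23e-07, and -0.75 ± 0.13 (SE), adjusted p = 6.99e-06. All mutant mice lay below all W/W mice. Relative to the hepatocyte markers the F/F value was -0.34 and no longer called. T0901317 brought it to 516, 437, 478 and 465 TPM in W/F mice (log2 fold change 1.07 ± 0.13 SE, adjusted p = 4.57e-08) and to 678, 651, 555 and 665 TPM in W/W mice (log2 fold change 0.58 ± 0.13 SE, adjusted p = 0.00317). Decr1, the 2,4-dienoyl-CoA reductase, was 142, 168, 152 and 122 TPM in W/W, 101, 90.4, 81.4 and 109 TPM in W/F and 114, 113, 102 and 113 TPM in F/F vehicle mice, and reached 246, 220.0, 228 and 207 TPM in W/W mice with T0901317. Acaa2 was 1039, 839, 843 and 922 TPM in F/F vehicle mice, below all 4 W/W vehicle mice (log2 fold change -0.69 ± 0.10 SE, adjusted p = 2.16e-07).

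The peroxisome shortens very long chains before mitochondria take over, and Ehhadh, its bifunctional enzyme, was called lower in both mutants in all 3 conditions. Ehhadh was 301, 299.5, 227 and 335 TPM in W/W, 104, 119, 128 and 72.1 TPM in W/F and 78.6, 58.4, 76.2 and 73.7 TPM in F/F chow mice. With vehicle it was 437, 625, 581 and 390.2 TPM in W/W, 123, 217, 167 and 195 TPM in W/F and 75.3, 91.1, 87.1 and 98.2 TPM in F/F mice. With T0901317 it was 2723, 3420.2, 2073 and 2327 TPM in W/W, 324, 268, 319.7 and 316 TPM in W/F and 126, 154, 232 and 202 TPM in F/F mice. In each of the 3 conditions no W/F or F/F mouse reached the lowest W/W mouse, and the W/F mice lay above the F/F mice on vehicle and with T0901317. Against W/W, the F/F log2 fold changes were -2.0 ± 0.20 (SE), adjusted p = 4.46e-09 on chow, -2.5 ± 0.20 (SE), adjusted p = 1.77e-12 on vehicle and -3.89 ± 0.20 (SE), adjusted p = 3.19e-15 with T0901317. Those of W/F were -1.46 (adjusted p = 4.72e-05), -1.53 (adjusted p = 6.20e-08) and -3.08 (adjusted p = 7.25e-13). F/F mice given T0901317 had 126 to 232 TPM against 227 to 335 TPM in W/W chow mice, and 1 of the 4 lay inside the latter range. The agonist response was 2.37 ± 0.20 (SE), adjusted p = 3.70e-10 in W/W, 0.83 (adjusted p = 4.46e-04) in W/F and 0.98 (adjusted p = 5.00e-04) in F/F mice. Ehhadh lies at chr16:21761287-21787807 on the minus strand and shares none of its 50-base stretches with another annotated gene.

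Acaa1b, a peroxisomal thiolase, had the highest group mean of any member, 5447 ± 787 TPM in W/W mice given T0901317. It was not the most abundant in every group, with a mean of 139 TPM in F/F chow mice against 1180 TPM for Acaa2. On chow it was 1764, 633, 937 and 1585 TPM in W/W, 353, 739, 767 and 243 TPM in W/F and 209, 54.1, 136 and 157 TPM in F/F mice. On vehicle it was 3385, 3424, 2647 and 2613 TPM in W/W, 764, 807, 613 and 1020.4 TPM in W/F and 423, 465, 500.4 and 498 TPM in F/F mice. All W/F and F/F vehicle mice lay below all W/W vehicle mice. The F/F log2 fold changes were -3.17 ± 0.33 (SE), adjusted p = 9.54e-09 on chow and -2.67 ± 0.33 (SE), adjusted p = 1.41e-08 on vehicle. T0901317 brought it to 2552, 1706, 2453 and 2292 TPM in W/F and 1108, 1067, 1323 and 1077 TPM in F/F mice, above all vehicle mice of the same genotype (log2 fold changes 1.5 ± 0.33 SE, adjusted p = 1.90e-04, and 1.27 ± 0.33 SE, adjusted p = 0.00389). In W/W mice it was 5559.9, 6481, 4629.9 and 5116 TPM, and despite no overlap with vehicle the change of 0.85 did not pass the test (adjusted p = 0.0945), although it did relative to the hepatocyte markers, at 1.08. The neighbouring thiolase gene Acaa1a, 183 kb away on chromosome 9, had group means of 116 to 193 TPM only. Since 30.5% of the 50-base stretches of Acaa1b also occur in Acaa1a, the split of reads between both genes is uncertain.

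The other peroxisomal members had smaller fold changes on vehicle. Decr2, the peroxisomal reductase for unsaturated chains, was 294, 299, 277 and 249 TPM in W/W, 173, 160.3, 119 and 156 TPM in W/F and 184, 152, 143 and 156 TPM in F/F vehicle mice, with no overlap between W/W and the mutants (log2 fold changes -0.89 ± 0.14 SE, adjusted p = 1.75e-06, and -0.82 ± 0.14 SE, adjusted p = 4.00e-06). With T0901317 it rose in W/F mice to 332, 305, 283 and 327 TPM (log2 fold change 1.04 ± 0.14 SE, adjusted p = 1.70e-07). Hsd17b4, the second bifunctional enzyme, was 363, 468, 404 and 389 TPM in W/W and 226, 275, 246 and 246 TPM in F/F vehicle mice (log2 fold change -0.71 ± 0.10 SE, adjusted p = 3.71e-07). All F/F mice lay below all W/W mice. Pex11a, a membrane protein of peroxisome division, was 105, 111, 106 and 81.3 TPM in W/W vehicle mice and 171, 216, 150.2 and 181 TPM with T0901317 (log2 fold change 0.82 ± 0.20 SE, adjusted p = 0.00505). F/F mice had 75.1, 68.7, 64.2 and 63.4 TPM and 74.9, 79.1, 93.8 and 72.1 TPM, and the groups overlapped (log2 fold change 0.23, adjusted p = 0.371). Eci2 had a mean of 274 ± 42.2 TPM in W/W and 160.2 ± 17.7 TPM in W/F vehicle mice.

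The promoters of Ehhadh and Acaa1b are shown because as deposited these were the 2 peroxisomal genes called lower in F/F mice in all 3 conditions. After rescaling all 7 were called lower in F/F mice in each condition. They come from RefSeq (GRCm38.p6), from 250 bases before to 50 after the annotated start, at chr16:21787785-21788084 and chr9:119157044-119157343, both on the minus strand. Neither holds an AGGTCA half-site on either strand.
Ehhadh: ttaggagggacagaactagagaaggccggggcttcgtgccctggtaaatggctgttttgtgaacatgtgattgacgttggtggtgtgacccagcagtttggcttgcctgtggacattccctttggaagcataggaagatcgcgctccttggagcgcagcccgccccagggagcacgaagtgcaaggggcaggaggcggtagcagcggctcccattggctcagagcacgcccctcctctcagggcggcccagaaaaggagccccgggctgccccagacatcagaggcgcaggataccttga
Acaa1b: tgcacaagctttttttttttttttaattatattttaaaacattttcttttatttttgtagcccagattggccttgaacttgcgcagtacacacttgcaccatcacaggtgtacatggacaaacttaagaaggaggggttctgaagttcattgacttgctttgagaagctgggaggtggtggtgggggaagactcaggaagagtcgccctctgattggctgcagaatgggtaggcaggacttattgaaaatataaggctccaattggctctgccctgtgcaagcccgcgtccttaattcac
Windows of this kind were found for 26 of the 34 members. None of the 26 held the exact direct repeat that PPAR-alpha favours, AGGTCA followed after 1 base by AGGTCA, or that LXR favours, the same pair 4 bases apart, on either strand. Of all 32851 promoters 0.0396% and 0.0152% held them. With AGGNCA in place of each AGGTCA, 0 of 26 were found too, against 0.381% and 0.253% of all promoters. A single AGGTCA, searched after the longer motifs had been seen to be absent, was in the windows of Acadm, Acadvl, Acot3, Acot4, Cpt1a and Creb3l3, 23.1% of the 26 against 16.3% of all promoters. Absence says only that these letters are not in this window.

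Bdh1, which interconverts the ketone bodies acetoacetate and beta-hydroxybutyrate, shared the pattern of Cpt1a on chow. It was 184, 139, 153 and 141 TPM in W/W, 191, 199.5, 178 and 142 TPM in W/F and 292, 227, 323 and 324 TPM in F/F chow mice, with all F/F mice above all others. The F/F log2 fold change was 0.91 ± 0.12 (SE), adjusted p = 6.86e-07. In F/F vehicle mice it was 209, 204, 214 and 219 TPM, below its F/F chow values (log2 fold change -0.45 ± 0.12 SE, adjusted p = 0.00220 as deposited; relative to the hepatocyte markers the value was 0.20). Its direction in the mutants on vehicle turned with the scaling. Against W/W vehicle mice, which had 141, 201, 177 and 138 TPM, it was called higher as deposited, at 0.32 (adjusted p = 0.0193) in W/F and 0.38 (adjusted p = 0.00517) in F/F mice, and lower after rescaling, at -0.34 (adjusted p = 0.0389) and -0.47 (adjusted p = 0.00368). The W/F call as deposited was lost at an adjusted p of 0.0905 without W/W vehicle replicate 4. T0901317 gave no called change as deposited, with 0.25 (adjusted p = 0.198) in W/W, -0.13 (adjusted p = 0.362) in W/F and 0.14 (adjusted p = 0.366) in F/F mice. After rescaling it was called higher in W/F mice, at 0.47 (adjusted p = 0.00471), and in F/F mice, at 0.41 (adjusted p = 0.0396), and relative to the hepatocyte markers the W/W value was called, at 0.49.

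Omega-oxidation hydroxylates the far end of a fatty acid, and its Cyp4a enzymes are the textbook targets of PPAR-alpha in mouse liver. The 3 members lie within 234.6 kb of chromosome 4. Cyp4a14 was 351, 24.3, 95.2 and 270.3 TPM in W/W, 1.84, 162, 75.1 and 5.69 TPM in W/F and 8.03, 5.92, 16.1 and 10.0 TPM in F/F chow mice. On vehicle it was 271, 889, 1311 and 228 TPM in W/W, 4.05, 22.1, 13.0 and 29.7 TPM in W/F and 2.23, 2.26, 2.98 and 3.1 TPM in F/F mice. All W/F vehicle mice lay far below the lowest W/W mouse, and all F/F mice lay below the lowest W/F mouse. With T0901317 it was 1340.1, 2165, 1408 and 1556 TPM in W/W, 232, 77.9, 89.5 and 63.4 TPM in W/F and 6.26, 5.27, 35.8 and 9.56 TPM in F/F mice. The third F/F mouse stood apart as the highest, and still lay below all W/F mice. F/F against W/W, the log2 fold changes were -3.57 ± 0.89 (SE), adjusted p = 0.00178 on chow, -7.16 ± 0.89 (SE), adjusted p = 2.00e-08 on vehicle and -7.11 ± 0.89 (SE), adjusted p = 9.53e-08 with T0901317.

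Cyp4a10, like Cyp4a14, was called lower in F/F than in W/W mice in each condition, but other calls differed. For T0901317 in F/F mice Cyp4a10 was called higher and Cyp4a14 was not. The same held for the diet in W/W mice. That diet call was kept in 3 of 8 fits with 1 mouse left out (adjusted p = 0.194 without W/W chow replicate 2). Cyp4a10 was 306, 63.5, 161 and 293 TPM in W/W, 6.82, 99.2, 62.4 and 9.34 TPM in W/F and 11.6, 6.84, 22.4 and 12.8 TPM in F/F chow mice, and 614, 767, 1162 and 449 TPM in W/W, 10.5, 46.8, 49.8 and 32.2 TPM in W/F and 9.92, 4.91, 7.41 and 16.4 TPM in F/F vehicle mice. Among W/F chow mice, numbers 1 and 4 were low and numbers 2 and 3 high for Cyp4a10, Cyp4a14, Acaa1b, Acot1 and Acot2 alike, and in W/W chow mice numbers 2 and 3 were the low ones for the same genes. T0901317 brought Cyp4a10 to 1527, 2179, 1631 and 1704 TPM in W/W, 436, 162, 354 and 209 TPM in W/F and 32.3, 24.9, 209 and 56.1 TPM in F/F mice. The treated mice did not overlap with the vehicle mice of their genotype, and the log2 fold changes were 3.12 ± 0.67 (SE), adjusted p = 1.54e-04 in W/F, and 2.52 ± 0.67 (SE), adjusted p = 0.00498 in F/F mice. That of W/W was 1.31 with an SE of 0.67 and did not pass the test (adjusted p = 0.242). F/F mice with T0901317 still lay below all W/W vehicle mice. With 29.8% of its 50-base stretches shared with Cyp4a31 and Cyp4a32, part of the value of Cyp4a10 may belong to those genes.

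Cyp4a12a, a male-predominant omega-hydroxylase, was lower on the MASH diet than on chow in both mutants. It was 273, 236, 395 and 239 TPM in W/W, 118, 263, 252 and 237 TPM in W/F and 123, 68.7, 34.1 and 35.2 TPM in F/F chow mice. On vehicle it was 191, 249, 208 and 185 TPM in W/W, 19.1, 9.56, 3.26 and 6.74 TPM in W/F and 3.80, 3.75, 1.18 and 1.71 TPM in F/F mice. The diet change was -0.43 (adjusted p = 0.519) in W/W, -4.51 ± 0.37 (SE), adjusted p = 1.26e-11 in W/F and -4.08 ± 0.37 (SE), adjusted p = 3.87e-10 in F/F mice, and the W/F and F/F groups did not overlap with chow. The difference from the W/W diet response passed its own test, at -4.08 ± 0.52 (SE), adjusted p = 2.43e-07 for W/F and -3.65 ± 0.52 (SE), adjusted p = 4.05e-06 for F/F. T0901317 returned W/F mice to 158, 131, 242 and 182 TPM, inside their chow range, a log2 fold change of 4.26 ± 0.37 (SE), adjusted p = 1.21e-10, and F/F mice to 18.5, 21.1, 13.8 and 10.7 TPM, 2.28 ± 0.37 (SE), adjusted p = 4.77e-05. W/W mice reached 541, 448, 532 and 509.7 TPM, above all W/W vehicle mice (log2 fold change 1.29, adjusted p = 0.0199), a call lost at an adjusted p of 0.0510 without W/W vehicle replicate 4. The W/F response was larger than that of W/W by 2.97 ± 0.52 (SE), adjusted p = 2.00e-05. The value may hold reads of a neighbour, since 48.9% of the 50-base stretches of Cyp4a12a occur in Cyp4a12b.

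**Figure D4:**
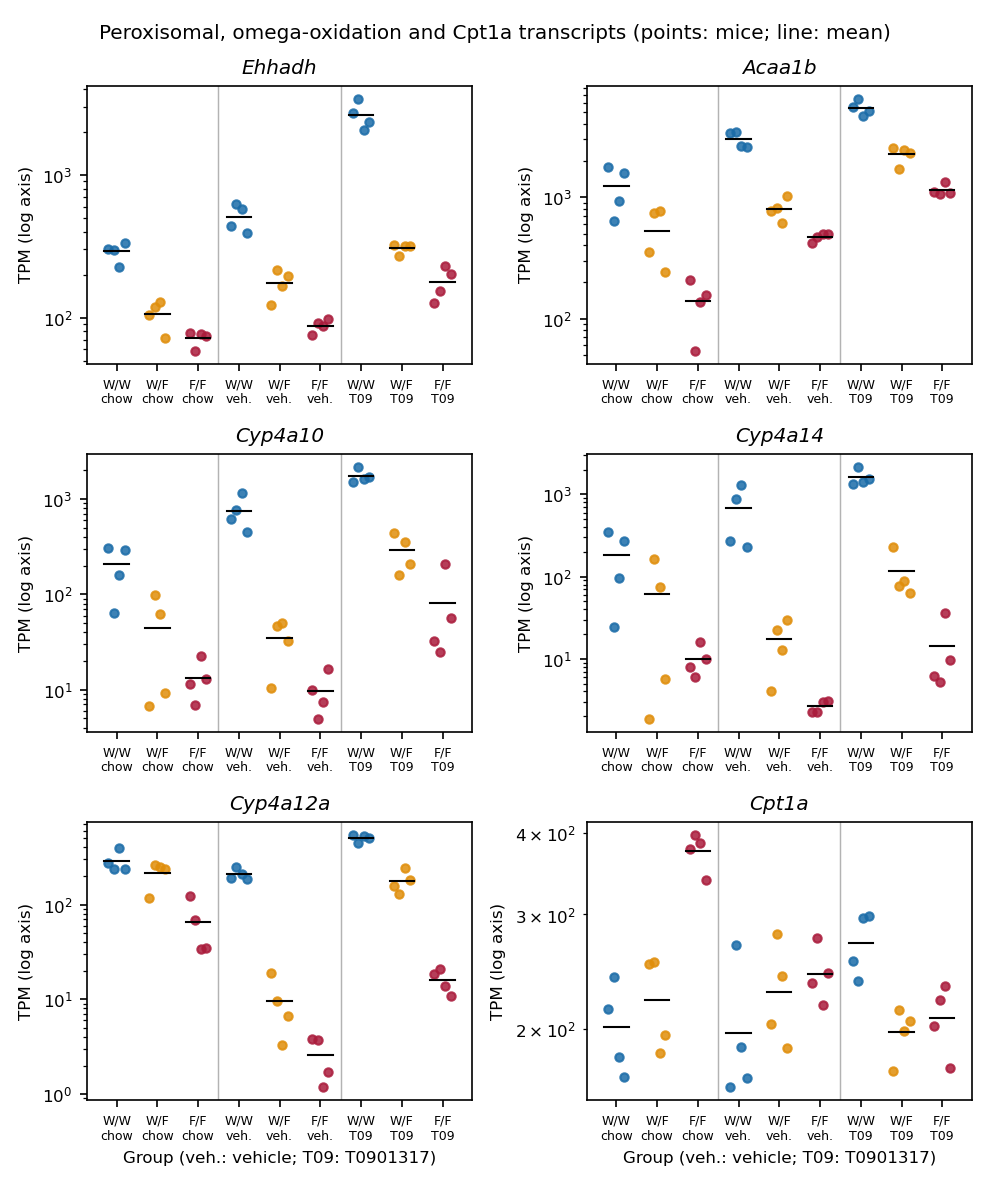
TPM (log axis) of Ehhadh, Acaa1b, Cyp4a10, Cyp4a14, Cyp4a12a and Cpt1a in each mouse of the 9 groups (points, blue W/W, orange W/F, red F/F; line, mean of 4 mice). In the first 5 panels the F/F points lie below the W/W points in every condition, and in the Cpt1a panel the F/F chow points, 339 to 398 TPM, are the highest.

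Acyl-CoA thioesterases split acyl-CoA into free fatty acid and CoA, Acot1 in the cytosol, Acot2 in mitochondria, and Acot3 and Acot4 in peroxisomes. The 4 genes lie within 72.54 kb of chromosome 12 on the plus strand. Their promoter windows are printed because in the mutants Acot1 was far below W/W on vehicle and its neighbour Acot2 was not. All are from RefSeq, GRCm38.p6, plus strand, at chr12:83987611-83987910 for Acot2, chr12:84009252-84009551 for Acot1, chr12:84038129-84038428 for Acot4 and chr12:84051894-84052193 for Acot3. Capitals mark the half-site TGACCT, the reverse complement of AGGTCA, which Acot3 and Acot4 hold once each.
Acot2: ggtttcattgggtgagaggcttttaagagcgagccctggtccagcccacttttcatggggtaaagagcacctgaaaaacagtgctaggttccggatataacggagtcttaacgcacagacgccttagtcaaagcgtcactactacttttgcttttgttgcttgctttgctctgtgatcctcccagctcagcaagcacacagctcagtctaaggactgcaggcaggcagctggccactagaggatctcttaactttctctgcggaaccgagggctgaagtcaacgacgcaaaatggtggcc
Acot1: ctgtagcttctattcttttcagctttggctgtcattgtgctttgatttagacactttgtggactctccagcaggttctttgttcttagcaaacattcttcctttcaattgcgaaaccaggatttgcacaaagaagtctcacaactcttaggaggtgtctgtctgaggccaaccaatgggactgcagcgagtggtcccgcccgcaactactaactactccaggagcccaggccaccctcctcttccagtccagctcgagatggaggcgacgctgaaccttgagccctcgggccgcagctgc
Acot4: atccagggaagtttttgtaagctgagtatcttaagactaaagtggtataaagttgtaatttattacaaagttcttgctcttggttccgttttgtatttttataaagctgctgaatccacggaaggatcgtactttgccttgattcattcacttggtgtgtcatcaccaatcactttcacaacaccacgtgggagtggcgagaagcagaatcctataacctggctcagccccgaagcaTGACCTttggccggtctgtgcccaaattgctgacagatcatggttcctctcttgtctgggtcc
Acot3: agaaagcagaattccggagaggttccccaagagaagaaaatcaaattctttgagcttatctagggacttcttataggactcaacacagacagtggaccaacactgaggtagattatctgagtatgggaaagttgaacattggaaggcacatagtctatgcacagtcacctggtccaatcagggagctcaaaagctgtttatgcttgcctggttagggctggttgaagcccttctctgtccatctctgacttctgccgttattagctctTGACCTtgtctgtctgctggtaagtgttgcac

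Acot1 lay below W/W in both mutants on vehicle, as the Cyp4a genes did, but its diet change in F/F mice went the other way. Their means on chow and on vehicle were 3.32 and 8.82 TPM for Acot1. They were 65.2 and 2.61 TPM for Cyp4a12a, 10.0 and 2.64 TPM for Cyp4a14 and 13.4 and 9.67 TPM for Cyp4a10. The rise of Acot1 was called, and stayed so with each of 8 mice left out. Acot1 was 46.8, 16.5, 25.6 and 40.7 TPM in W/W, 9.07, 28.3, 29.2 and 6.13 TPM in W/F and 3.85, 2.67, 3.06 and 3.69 TPM in F/F chow mice. On vehicle it was 84.2, 134, 152 and 53.9 TPM in W/W, 8.13, 8.0, 5.44 and 8.69 TPM in W/F and 7.08, 9.16, 10.2 and 8.83 TPM in F/F mice, so that both mutant groups lay far below all W/W mice. The log2 fold changes on vehicle were -3.55 ± 0.36 (SE), adjusted p = 1.06e-09, and -3.34 ± 0.36 (SE), adjusted p = 1.42e-09. T0901317 brought it to 286, 468, 253 and 236 TPM in W/W, 90.1, 40.5, 60.6 and 65.0 TPM in W/F and 10.7, 15.9, 14.2 and 13.8 TPM in F/F mice, with log2 fold changes of 1.60 ± 0.36 (SE), adjusted p = 0.00299, then 2.89 ± 0.36 (SE), adjusted p = 7.00e-08, and 0.57 (adjusted p = 0.217). All F/F mice stayed below the lowest W/W chow mouse in all 3 conditions, at most 15.9 TPM against 16.5 TPM.

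Acot2, the mitochondrial enzyme next to it, overlapped between the genotypes on chow, at 5.65, 2.04, 2.43 and 5.41 TPM in W/W and 2.99, 1.39, 5.51 and 4.74 TPM in F/F mice. On vehicle it was 12.9, 12.4, 12.2 and 5.77 TPM in W/W, 13.1, 10.7, 10.4 and 10.8 TPM in W/F and 18.0, 18.2, 15.8 and 18.5 TPM in F/F mice. As deposited it was called higher in F/F than in W/W vehicle mice. That call was kept in 4 of 8 fits with 1 mouse left out (adjusted p = 0.200 without W/W vehicle replicate 4). The rescaled means were 13.8 ± 5.02 TPM in W/W and 12.2 ± 0.717 TPM in F/F vehicle mice. With T0901317 W/W mice reached 55.9, 94.5, 45.4 and 44.9 TPM, a log2 fold change of 2.36 ± 0.32 (SE), adjusted p = 3.48e-06. W/F mice had 12.0, 10.9, 6.61 and 6.62 TPM and F/F mice 10.0, 15.0, 12.6 and 17.8 TPM, with no called change (-0.32, adjusted p = 0.378 and -0.35, adjusted p = 0.398). All W/W mice given the agonist lay above all mutant mice given it. Against W/W, the log2 fold changes with T0901317 were -2.58 ± 0.32 (SE), adjusted p = 6.26e-07, and -2.0 ± 0.32 (SE), adjusted p = 3.74e-06. Acot1 and Acot2 share sequence (19.2% and 27.7% of their 50-base stretches occur in other genes), so reads may have been split between them.

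Acot3, the peroxisomal thioesterase next to Acot4, was 7.93, 42.6, 7.74 and 1.10 TPM in W/W vehicle mice, where the second mouse stood far above the others, and 38.1, 52.2, 40.6 and 41.2 TPM in W/W mice with T0901317. In F/F mice it was 3.06, 1.55, 1.32 and 2.51 TPM on vehicle and 4.91, 4.90, 2.70 and 0.956 TPM with T0901317, and F/F lay below W/W with the agonist by -3.46 ± 0.65 (SE), adjusted p = 4.04e-05. Acot4 was 35.2, 32.8, 34.8 and 42.1 TPM in W/W and 11.8, 10.5, 11.5 and 9.62 TPM in F/F mice with T0901317, without overlap (log2 fold change -1.65 ± 0.31 SE, adjusted p = 3.96e-05). On vehicle it was 13.6, 32.1, 14.9 and 11.2 TPM in W/W and 9.84, 10.6, 9.73 and 10.8 TPM in F/F mice. The W/W groups of Acot3 given vehicle or T0901317 overlapped through that second vehicle mouse, and the calls of Acot3 and Acot4 for the W/W response, 2.25 (adjusted p = 0.0217) and 1.08 (adjusted p = 0.0202), were lost with 1 mouse left out, at an adjusted p of 0.130 without W/W vehicle replicate 4 for Acot3 and 0.0833 without W/W vehicle replicate 4 for Acot4.

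**Figure D5:**
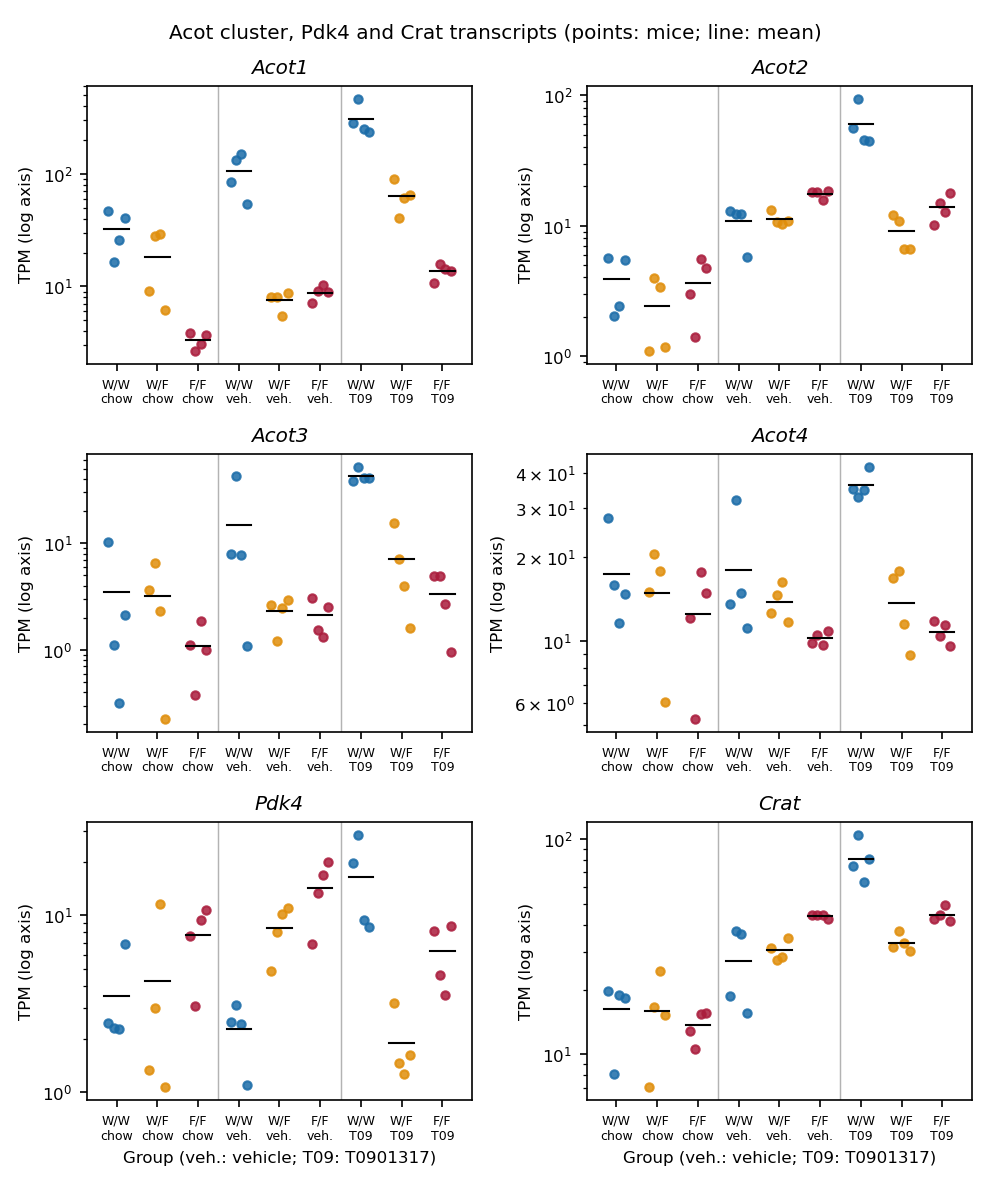
TPM (log axis) of Acot1, Acot2, Acot3, Acot4, Pdk4 and Crat in each mouse of the 9 groups (points, blue W/W, orange W/F, red F/F; line, mean of 4 mice). W/W mice with T0901317 have the highest mean in all 6 panels. On this deposited scale the F/F vehicle mice lie above the W/W vehicle mice for Acot2, Pdk4 and Crat, whereas for Acot1 they lie below.

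Pdk4, the kinase that shuts off pyruvate oxidation when fat is burned, responded to T0901317 in opposite directions in W/W and W/F mice. It was 2.5, 3.11, 2.44 and 1.09 TPM in W/W vehicle mice and 19.8, 28.5, 9.38 and 8.63 TPM with T0901317, a log2 fold change of 2.30 ± 0.45 (SE), adjusted p = 6.82e-04. W/F mice had 4.87, 8.07, 10.1 and 11.0 TPM on vehicle and 3.20, 1.46, 1.26 and 1.62 TPM with T0901317, a log2 fold change of -1.71 ± 0.45 (SE), adjusted p = 0.00146. F/F mice had 6.87, 13.4, 16.9 and 20.2 and 8.19, 4.60, 3.55 and 8.68 TPM, a change of -1.06 (adjusted p = 0.0667) that was called relative to the hepatocyte markers, at -1.26. W/W mice rose without overlap and W/F mice fell without overlap. On vehicle F/F mice lay above all W/W mice (log2 fold change 2.17 ± 0.45 SE, adjusted p = 7.62e-05, and 1.46 after rescaling), and so did W/F mice (1.52, adjusted p = 0.00377, and 1.00 after rescaling, where it was no longer called, adjusted p = 0.0650). Levels were low throughout, at most 28.5 TPM in any mouse.

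Vnn1, a pantetheinase and serum marker of PPAR-alpha activity, was 72.5, 99.0, 133 and 59.4 TPM in W/W vehicle mice and 204, 216, 202 and 209.7 TPM with T0901317 (log2 fold change 1.25, adjusted p = 0.0172), a call lost at an adjusted p of 0.0701 without W/W vehicle replicate 4. F/F mice had 89.4, 117, 91.3 and 91.6 and 125, 132, 138 and 139 TPM (log2 fold change 0.46, adjusted p = 0.309), which did not overlap either. Between F/F and W/W vehicle mice it had no called difference, at 0.16 (adjusted p = 0.695). Creb3l3, a liver transcription factor that cooperates with PPAR-alpha, was nearly level, with group means of 214 to 289 TPM, and was 195, 253, 264 and 248 TPM in W/W and 294, 283, 270.0 and 261 TPM in F/F vehicle mice.

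Whether the responses themselves differed between genotypes was tested as an interaction. The T0901317 response of 7 members was larger and that of 9 smaller in W/F than in W/W mice. Of all genes 58.5% differed there, 5.27% larger and 53.2% smaller. In F/F mice 0 members were larger and 8 smaller, where 30.4% of all genes differed, 3.29% larger and 27.2% smaller. After rescaling the splits were 20 larger and 3 smaller in W/F (43.9% of all genes) and 2 larger and 4 smaller in F/F (17.5%). Pdk4 differed by -4.02 ± 0.64 (SE), adjusted p = 5.44e-06 in W/F and -3.36 ± 0.64 (SE), adjusted p = 3.19e-04 in F/F mice, Acot2 by -2.69 ± 0.45 (SE), adjusted p = 1.03e-05 and -2.71 ± 0.45 (SE), adjusted p = 6.84e-05. Ehhadh differed by -1.54 ± 0.28 (SE), adjusted p = 2.63e-05 in W/F and -1.39 ± 0.28 (SE), adjusted p = 4.85e-04 in F/F mice. These 3 genes were called on both scales in both genotypes. Crat differed by -1.5 (adjusted p = 0.00106) in W/F, where it was not called after rescaling (adjusted p = 0.0590), and by -1.61 (adjusted p = 0.00217) in F/F mice, where it was also called after rescaling. Hadha and Hadhb differed in F/F mice by -0.51 (adjusted p = 0.00286) and -0.71 (adjusted p = 2.72e-04) as deposited, and by -0.18 and -0.38 after rescaling, where neither was called. For the MASH diet, 1 response was larger and 15 smaller in W/F than in W/W (54.6% of all genes differed, 49.5% larger and 5.13% smaller). In F/F mice 1 was larger and 12 smaller (46.0%, 41.5% larger and 4.54% smaller). After rescaling 0 were larger and 27 smaller in W/F (40.0%) and 0 larger and 24 smaller in F/F (26.9%). Acot1 differed in its diet response by -2.58 ± 0.51 (SE), adjusted p = 1.16e-04 in W/F, with -0.49 (adjusted p = 0.453) in F/F mice. The mice of the vehicle groups enter both kinds of response, so the 2 are not independent.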

How the data were processed

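PolyA RNA from 36 livers was measured by RNA-seq, 4 mice in each of 9 groups. The authors deposited 1 table of TPM values for 49315 genes, and each column sums to 1000000. Per the submitters' processing notes, Trimmomatic 0.36, STAR 2.5.2b, featureCounts and Subread 1.5.2 were used with GRCm38 (mm10). Their order and settings are not given in the sources used here. Steps between the low values gave a relative depth of 18.1 to 35.8 (in 1000000 reads), with 92.9% to 95.0% of values within 0.1 of a whole read, and this was not used in any test.

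The 16638 genes that reached 1 TPM in 4 or more samples were tested with limma 3.58.1 (R 4.3.3, trend) on log2(TPM + 1), which understates changes of low genes. All 36 samples shared 1 fit with a mean per group and 16 contrasts, with Benjamini-Hochberg adjustment over all genes tested. The 12 contrasts between 2 groups share groups with one another. Where nothing states that mice came from separate litters, p-values measure only the spread between these mice. Libraries were also rescaled by median-of-ratios factors from 13950 genes. Other alternatives were a pseudocount of 0.1, a filter at 5 TPM, no filter, and a replicate block. Fits of the compared groups alone, leaving out each mouse, and scaling to the hepatocyte markers were also run. That scaling used the mean of the markers' log2(TPM + 1), not their median fold change. Counts on it are given without the share of all genes called, and so without a background. The fit was tested on simulated data.

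The members and all gene and marker lists were chosen with earlier results of these data known. Values in every sample are given for a set covering each role and for members with the largest or smallest fold changes. Eci1, Decr2 and Acot4 were added after their values were seen. Promoters come from RefSeq (GRCm38.p6), positions and shared 50-base stretches from GENCODE M21.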

Additional observations from a re-analysis of the deposited data

Results flagged for a closer look

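Among the 306 sets of 4 mice formed by the 34 genes in 9 groups, 18 held a mouse that stood far from the other 3, 5.88% of them, where chance alone gives about 1 in 20. In these 18 sets the mouse that stood apart was the highest 7 times and the lowest 11 times. Some mice stood apart for more than 1 gene, so the sets are not independent. The third F/F mouse given T0901317 was the highest for 3 genes of peroxisomal and omega-oxidation at once, with 1323 TPM of Acaa1b, 209 TPM of Cyp4a10 and 35.8 TPM of Cyp4a14. Among W/F mice given T0901317, the first was the highest for Cyp4a14 at 232 TPM and the lowest for Acadm at 264 TPM, and the second was the lowest for Ehhadh at 268 TPM. In W/W vehicle mice the second had 42.6 TPM of Acot3 and the fourth 5.77 TPM of Acot2. In F/F vehicle mice the fourth had 42.3 TPM of Crat, the third 15.8 TPM of Acot2 and 102 TPM of Decr1, and the second 117 TPM of Vnn1. The first W/F vehicle mouse had 55.0 TPM of Etfdh. On chow, the second W/W mouse had 8.10 TPM of Crat and 248 TPM of Acadvl, the fourth W/W mouse 6.92 TPM of Pdk4, and the first W/F mouse 18.6 TPM of Slc22a5 and 286 TPM of Acadvl.

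The other results set apart here are responses that differed from those of W/W mice by a test of the difference itself. For T0901317 such a difference was called for 16 members in W/F and 8 in F/F mice, where 58.5% and 30.4% of all genes differed. For the MASH diet it was called for 16 and 13 members, where 54.6% and 46.0% of all genes differed. Pdk4 had the widest difference of the T0901317 response, -4.02 in W/F and -3.36 in F/F mice. Acot2 differed by -2.69 and -2.71, Crat by -1.5 and -1.61, and Ehhadh by -1.54 and -1.39, in the same order. In F/F mice Hadha differed by -0.51 and Hadhb by -0.71. Cyp4a12a differed by 2.97 in its T0901317 response in W/F mice, and in its diet response by -4.08 in W/F and -3.65 in F/F mice. The diet response of Acot1 differed by -2.58 in W/F mice.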

How the results depend on the processing

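Counts of called members moved by more than 1.5 times under some settings. Rescaling by median-of-ratios factors gave 20 for T0901317 in F/F, 23 for the diet in W/F, 20 for F/F on chow, and 27 and 24 for the diet response in W/F and F/F. Relative to the hepatocyte markers the counts were 27 and 25 for the diet in W/W and F/F, 27 for the T0901317 response in F/F and 8 for the diet response in F/F. Fits of the compared groups alone gave 0 for the diet in W/W (19 at an unadjusted p under 0.05), 0 for W/F on chow (4 at an unadjusted p under 0.05) and 14 for the T0901317 response in F/F, and the filter at 5 TPM gave 2 for W/F on chow. A pseudocount of 0.1 and no filter moved no count by that much.

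With 1 mouse left out at a time the counts were 13 to 22, 21 to 23 and 7 to 11 for T0901317 in W/W, W/F and F/F, 11 to 20, 11 to 15 and 13 to 16 for the diet, 1 to 3 and 9 to 15 for W/F and F/F on chow, 19 to 22 and 20 to 23 on vehicle, 17 to 20 and 26 to 29 with T0901317, 12 to 16 and 7 to 12 for the T0901317 responses, and 12 to 18 and 10 to 17 for the diet responses. The fourth W/W vehicle mouse gave the 13 and the second W/W chow mouse the 11 in W/W.

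Among the fold changes named in the text, those that changed sign were, relative to the hepatocyte markers, Cpt1a at 0.019 and Bdh1 at 0.20 (diet, F/F) and Acadm at 0.31 and Hadh at 0.38 (vehicle, F/F against W/W). Rescaled, they were Cpt1a at 0.41 and Bdh1 at 0.47 (T0901317, W/F), Bdh1 at -0.34 (vehicle, W/F against W/W), and Bdh1 at -0.47, Cpt1a at -0.53, Hadhb at -0.48, Creb3l3 at -0.64 and Crat at -0.052 (vehicle, F/F against W/W). The cause was not tested.

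Over all genes tested, deviations of samples with the same replicate number had a median r of 0.0131 over 144 pairs, 18 of them over 0.1. Pairs with different numbers had a median r of -0.00643 over 432 pairs, 38 of them over 0.1. Single genes were not examined in this way. With the replicate number as a block the counts were 21, 23 and 9 for T0901317, 18, 15 and 15 for the diet, 1 and 12 on chow, 22 and 24 on vehicle, 21 and 28 with T0901317, 15 and 8 for the T0901317 responses and 16 and 14 for the diet responses. TPM keeps little of the depth, and transcripts near 1 TPM, such as Acot3 and Pdk4, have the least precise values.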
